A study of Mus musculus with 4 samples.

Results

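The genes described here are 8 members of the hedgehog pathway: the ligand Shh, the receptor Ptch1, the ligand-binding inhibitor Hhip, the signal transducer Smo, the intracellular inhibitor Sufu, and the transcription factors Gli1, Gli2 and Gli3. They were taken by gene symbol from a table of 20611 genes, and all 8 had a row. They were chosen by symbol and selected on readouts of these same libraries, the counts compared across IMQ+IDMF, IMQ+VEH and IMQ, so their differences are given as a description, without a test. All 8 passed the filter on low counts.

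The tissue was dorsal skin of BALB/c mice, males of 8 to 9 weeks, read by RNA sequencing. All mice received 5% imiquimod (IMQ) cream, 47 mg per day, from day 1 to day 5, and skin was taken on day 6. Imiquimod is a Toll-like receptor 7 agonist that produces a psoriasis-like inflammation in mouse skin. The IMQ+IDMF group (1 library) also received a lotion with IDMF, about 1 h after the cream. The study's title spells IDMF out as isosorbide di-(methyl fumarate) and calls it a dimethyl fumarate pro-drug. The IMQ+VEH group (2 libraries) received the vehicle lotion at that time. The IMQ group (1 library) was labelled as treated with the cream alone. Every group therefore carried the inflammation model, and skin without imiquimod was not analysed here. The labels do not say how many mice a library holds or whether the IMQ+VEH libraries came from separate mice, so the spread between those libraries may be technical. IMQ+IDMF and IMQ had no replicate.

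Total counts were 21991604 in IMQ+IDMF, 26639628 and 21167149 in IMQ+VEH replicates 1 and 2, and 26337985 in IMQ. The basal keratinocyte keratin Krt14 had 5334 CPM (counts scaled to library size) in IMQ+IDMF, 4540 and 4677 CPM in IMQ+VEH and 9905 CPM in IMQ, so this marker of skin epithelium was abundant in every library. Across 15068 genes tested with edgeR's quasi-likelihood test, 0 genes passed a Benjamini-Hochberg adjusted p of 0.05 between IMQ+IDMF and IMQ+VEH (0%), with 306 at an unadjusted p under 0.05 and 0 by DESeq2. Between IMQ+VEH and IMQ, 100 genes passed (0.664%), 51 higher (0.338%) and 49 lower (0.325%).

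Hedgehog ligands bind Patched receptors at the cell surface. This frees Smoothened, the product of Smo, which acts through the primary cilium to release the Gli factors from Sufu. Gli2 and Gli3 carry the first response and Gli1 is a transcriptional target that strengthens it, while Ptch1 and Hhip are targets that dampen it. In skin, Shh is made by epithelial cells of the growing hair follicle and is received by the neighbouring epithelium and the dermal papilla, and the pathway drives follicle growth.

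Shh encodes the secreted ligand and lies at chr5:28456815-28467256 on the minus strand of GRCm38, the build of every position given here (GENCODE M21). It had 67 counts in IMQ+IDMF, 2 and 4 counts in IMQ+VEH replicates 1 and 2, and 62 counts in IMQ. The corresponding levels were 2.996 CPM in IMQ+IDMF, 0.0713 and 0.195 CPM in IMQ+VEH, and 2.44 CPM in IMQ. Both IMQ+VEH libraries therefore lay close to the detection floor of 3 counts (0.107 and 0.146 CPM), and far below the other libraries. Scaled to library size, the count in IMQ+IDMF was 24.2 times that of the summed IMQ+VEH libraries (exact 95% interval 10.6 to 68.4). The summed IMQ+VEH count was 0.0506 times that of IMQ (0.0179 to 0.116). IMQ+IDMF and IMQ were alike within counting error, with a ratio of 1.23 (0.855 to 1.76). These intervals cover counting error only and hold no variation between mice. Shh passed the filter on low counts only through the IMQ+IDMF and IMQ libraries. In bulk skin, fewer Shh-making cells and less Shh RNA per cell cannot be told apart.

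Reads of Shh could be split with its relatives only where their transcripts are alike. The longest run that the GENCODE M21 transcripts of Shh share with those of Ihh (Indian hedgehog) is 17 bases, which is also the length shared with Dhh (Desert hedgehog), below the 50-base read. The run shared by Shh and Ihh is shown in capitals because it marks how far the ligands can be told apart by a read. The printed stretches, with 12 bases on either side of the run, lie at chr5:28461516-28461556 (minus strand) for Shh and chr1:74948498-74948538 (minus strand) for Ihh.
Shh: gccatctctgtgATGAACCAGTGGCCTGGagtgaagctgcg
Ihh: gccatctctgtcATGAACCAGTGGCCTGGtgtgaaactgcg
The other ligands did not have the Shh pattern. Ihh had 10 counts in IMQ+IDMF, 11 and 6 in IMQ+VEH, and 16 in IMQ. Dhh, made by Schwann cells, had 50 counts in IMQ+IDMF, 124 and 33 in IMQ+VEH, and 31 in IMQ. Its exons overlap those of Rhebl1 on the same strand, so its counts are uncertain. The 8 Schwann cell markers summed to 231 CPM in IMQ+IDMF, 449 and 253 CPM in IMQ+VEH, and 104 CPM in IMQ, none at 0. Of these the myelin gene Pmp22 rose in IMQ+VEH compared with IMQ, with 1740 counts in IMQ+IDMF, 4511 and 1502 in IMQ+VEH, and 696 in IMQ (edgeR adjusted p 0.0497 for IMQ+VEH over IMQ). Their part in the Dhh counts was not tested.

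Smo (chr6:29735503-29761365, plus strand), which carries the signal into the cell, was the most abundant member per transcript length in every library. Its FPKM (a count scaled to transcript length and library size) was 14.7 in IMQ+IDMF, 15.4 and 12.9 in IMQ+VEH, and 15.3 in IMQ. The fitted log2 difference of IMQ+IDMF over IMQ+VEH was 0.09 (SE 0.26), and that of IMQ+VEH over IMQ was -0.22 (SE 0.26). Sufu (chr19:46396896-46488804, plus strand), which holds Gli proteins in the cytoplasm, had 4.16 FPKM in IMQ+IDMF, 5.13 and 3.59 FPKM in IMQ+VEH, and 4.90 FPKM in IMQ. Its fitted log2 differences in the same comparisons were -0.02 (SE 0.31) and -0.28 (SE 0.31). The IMQ+IDMF value of Sufu lay within the range of the IMQ+VEH libraries, and the fitted differences of both genes were smaller than their standard errors. Per transcript length the members ran in the order Smo, Gli1, Sufu, Ptch1, Gli2, Shh, Gli3 and Hhip in IMQ+IDMF and in IMQ. In both IMQ+VEH libraries Gli1 stood behind Sufu and Ptch1, and Shh stood among the last 2.

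Ptch1 (chr13:63508328-63573598, minus strand), the main Hedgehog receptor and itself a target of the pathway, did not follow Shh. It had 334 counts in IMQ+IDMF, 572 and 187 in IMQ+VEH replicates 1 and 2, and 677 in IMQ. Its level was 14.9 CPM in IMQ+IDMF, 20.4 and 9.12 CPM in IMQ+VEH, and 26.7 CPM in IMQ. IMQ+IDMF thus lay between the IMQ+VEH libraries, whose own values differed by 1.15 on the log2 scale. The fitted log2 difference of IMQ+IDMF over IMQ+VEH was 0.01 (SE 0.43), and it was 0.71 without replicate 1 and -0.45 without replicate 2, so its direction rests on which IMQ+VEH library is used. That of IMQ+VEH over IMQ was -0.85 (SE 0.42). Scaled to library size, Ptch1 in IMQ+IDMF was 0.560 times its level in IMQ (exact 95% interval 0.490 to 0.639).

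Hhip (chr8:79965851-80058006, minus strand) binds Hedgehog ligands at the cell surface and so limits their range. It was the lowest or next to lowest member per transcript length, with 40 counts in IMQ+IDMF, 20 and 7 in IMQ+VEH, and 30 in IMQ. Both IMQ+VEH libraries were below the other libraries (13.4% of the genes tested). The fitted log2 differences were 1.73 (SE 0.89) for IMQ+IDMF over IMQ+VEH and -1.13 (SE 0.91) for IMQ+VEH over IMQ, each less than 2 times its standard error.

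**Figure D1:**
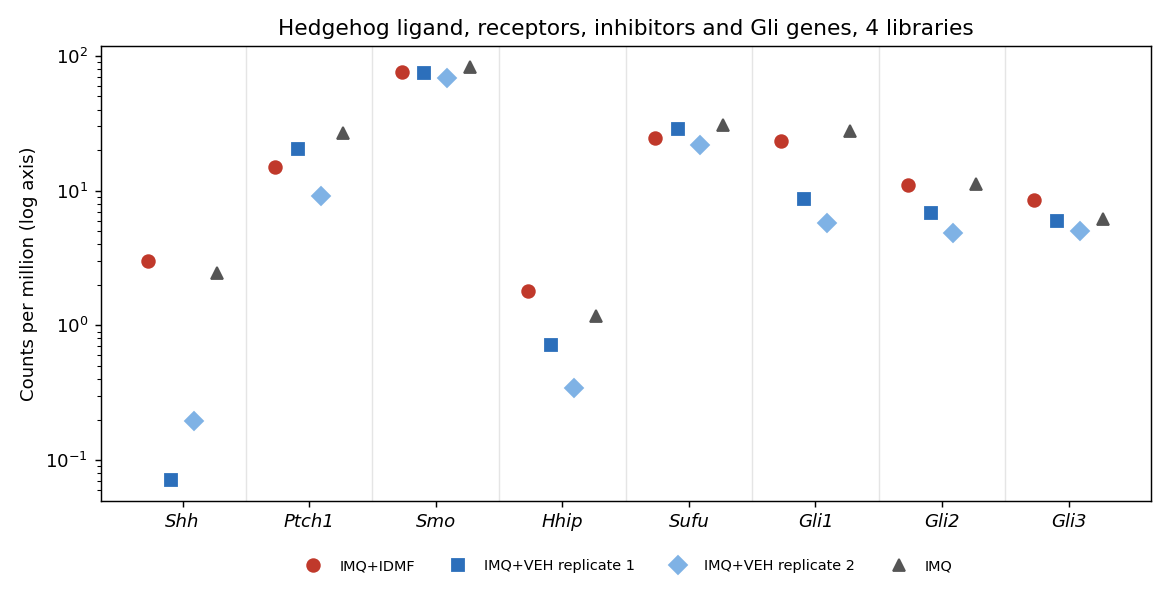
CPM of the 8 hedgehog members in each library on a log axis, with IMQ+IDMF, both IMQ+VEH replicates and IMQ as separate points. Shh in the IMQ+VEH libraries sits at 0.0713 and 0.195 CPM, against 2.996 CPM in IMQ+IDMF and 2.44 CPM in IMQ, while Smo stays between 68.2 and 83.3 CPM.

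Gli1 (chr10:127329882-127341974, minus strand), the transcription factor that is most often read as the output of the pathway, had 520 counts in IMQ+IDMF, 244 and 117 in IMQ+VEH, and 699 in IMQ. Its CPM was 23.3 in IMQ+IDMF, 8.70 and 5.71 in IMQ+VEH, and 27.5 in IMQ. Both IMQ+VEH libraries lay below IMQ+IDMF and IMQ, as they did for 13.4% of the genes tested. Replicate 2 of IMQ+VEH was 0.60 below replicate 1 in log2 CPM. The fitted log2 difference of IMQ+IDMF over IMQ+VEH was 1.69 (SE 0.35), and IMQ+IDMF lay 1.41 and 2.01 above the replicates. That of IMQ+VEH over IMQ was -1.93 (SE 0.35). Gli1 was the only member among the 49 genes called lower in IMQ+VEH than in IMQ (0.325% of the genes tested), a count from which nothing is read because the members were chosen with this contrast known. It was not called when libraries were scaled by total counts, or with IMQ+VEH and IMQ+IDMF as 1 group. In IMQ+IDMF the level of Gli1 was 0.844 times that in IMQ (exact 95% interval 0.752 to 0.947).

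Gli2 (chr1:118834132-119053619, minus strand), the main activator, had 246 counts in IMQ+IDMF, 191 and 99 in IMQ+VEH, and 284 in IMQ. Its CPM was 11.0 in IMQ+IDMF, 6.81 and 4.83 in IMQ+VEH, and 11.2 in IMQ. Again both IMQ+VEH libraries were the lowest (13.4% of the genes tested). The fitted log2 differences were 0.91 (SE 0.42) for IMQ+IDMF over IMQ+VEH and -0.94 (SE 0.42) for IMQ+VEH over IMQ. The ratio of IMQ+IDMF to IMQ was 0.983 (0.825 to 1.17). Gli3 (chr13:15463235-15730026, plus strand), which acts mainly as a repressor in the absence of ligand, had 190 counts in IMQ+IDMF, 168 and 103 in IMQ+VEH, and 156 in IMQ. Its level in IMQ (6.15 CPM) was close to that of the IMQ+VEH libraries (5.99 and 5.02 CPM), and that in IMQ+IDMF was 8.50 CPM. Its fitted log2 differences were 0.62 (SE 0.45) for IMQ+IDMF over IMQ+VEH and -0.16 (SE 0.46) for IMQ+VEH over IMQ. In both comparisons the fitted difference was largest for Gli1 and smallest for Gli3 among the 3 Gli genes, an order that was not tested.

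The 3 Gli genes share a zinc-finger region, and a read that falls in an identical stretch could be counted for either gene. Their longest shared runs in GENCODE M21 transcripts are 23 bases for Gli1 and Gli2, 14 bases for Gli1 and Gli3, and 25 bases for Gli2 and Gli3, all below the 50-base read. The longest runs are shown in capitals, and the positions are those of the whole printed stretches. The stretches of Gli1 (chr10:127334350-127335995) and Gli2 (chr1:118844502-118845949), both on the minus strand, span an intron.
Gli1: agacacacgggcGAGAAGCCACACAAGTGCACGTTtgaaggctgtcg
Gli2: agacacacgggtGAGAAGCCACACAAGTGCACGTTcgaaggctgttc
The stretches around the run shared by Gli2 (chr1:118846000-118846048, minus strand) and Gli3 (chr13:15713517-15713565, plus strand) lie in 1 exon of each gene.
Gli2: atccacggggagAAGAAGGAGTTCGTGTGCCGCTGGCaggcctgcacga
Gli3: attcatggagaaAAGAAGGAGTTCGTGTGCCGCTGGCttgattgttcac
Gli1 also overlaps exons of Arhgap9, on the opposite strand, over 62 of its 4995 exonic bases (1.241%). Arhgap9 had 151 counts in IMQ+IDMF, 344 and 130 in IMQ+VEH, and 191 in IMQ, an order that is not that of Gli1. Whether the counting used strand is not stated in the labels.

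RefSeq promoters (GRCm38.p6) were matched for 6 members, all but Shh and Gli1. The Gli consensus GACCACCCA, searched on both strands, was in none of their 250 upstream bases, against 74 of 32851 promoters in all (0.225%). Its shorter core ACCACCC, which lies within it, was in 1289 promoters (3.92%) and in 1 of the 6, that of Gli2, 205 bases before the start. A match of this kind is a description of letters in a window. The 250 bases upstream of Gli2 are shown at chr1:119053620-119053869 on the minus strand, with the match, in reverse complement, in capitals.
Gli2: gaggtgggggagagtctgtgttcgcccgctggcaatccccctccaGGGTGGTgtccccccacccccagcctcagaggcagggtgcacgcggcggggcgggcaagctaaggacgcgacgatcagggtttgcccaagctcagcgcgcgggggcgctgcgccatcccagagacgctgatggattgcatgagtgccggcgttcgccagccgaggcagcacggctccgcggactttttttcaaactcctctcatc

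Counted over the 8 members, IMQ+IDMF lay above both IMQ+VEH libraries for 6 (27.7% of the genes tested did) and below both for 0 (27.5%). Both IMQ+VEH libraries lay below IMQ for 8 of 8 (35%). For 6 of 8 both lay below IMQ+IDMF and IMQ alike (13.4%), the exceptions being Ptch1 and Sufu. Replicate 2 was below replicate 1 for 7 of 8 (53%), and IMQ+IDMF was below IMQ for 5 of 8 (49.8%). The median log2 difference over the members was 0.77 for IMQ+IDMF over IMQ+VEH, against -0.0083 over all genes tested, and -0.89 for IMQ+VEH over IMQ, against 0.0025. The choice of members used these contrasts, so the counts are descriptive.

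**Figure D2:**
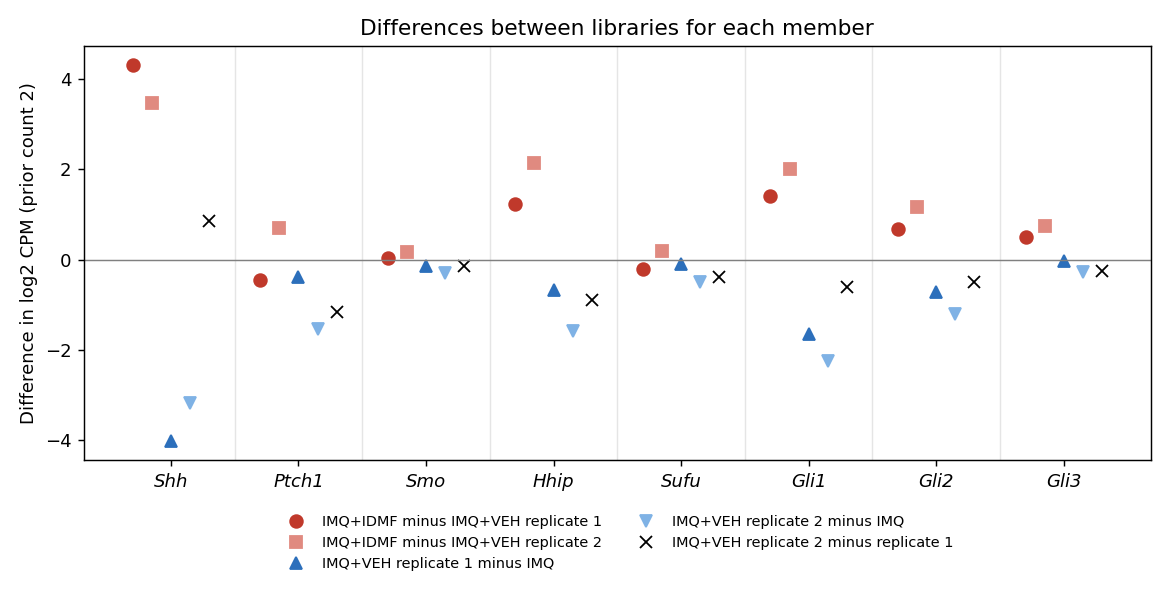
Log2 CPM differences (vertical axis, prior count 2) for each member: red points are IMQ+IDMF minus each IMQ+VEH replicate, blue triangles are each replicate minus IMQ, and crosses are replicate 2 minus replicate 1. Both red points lie above 0 for 6 members, those of Ptch1 and Sufu lie on either side of it, and Shh is the only member with its cross above 0.

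Ratios were also taken within each library, which removes the scaling to library size. Gli1 counts per 100 Smo counts were 30.5 in IMQ+IDMF, 11.6 and 8.37 in IMQ+VEH, and 33.1 in IMQ. Gli1 per 100 Ptch1 counts was 156 in IMQ+IDMF, 42.7 and 62.6 in IMQ+VEH, and 103 in IMQ. Both ratios were lower in the 2 IMQ+VEH libraries than in the other libraries, and the exact 95% intervals of Gli1 per Smo did not overlap between them. Gli3 per 100 Smo counts was 11.1 in IMQ+IDMF, 7.98 and 7.37 in IMQ+VEH and 7.38 in IMQ, so only IMQ+IDMF stood above the others.

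**Figure D3:**
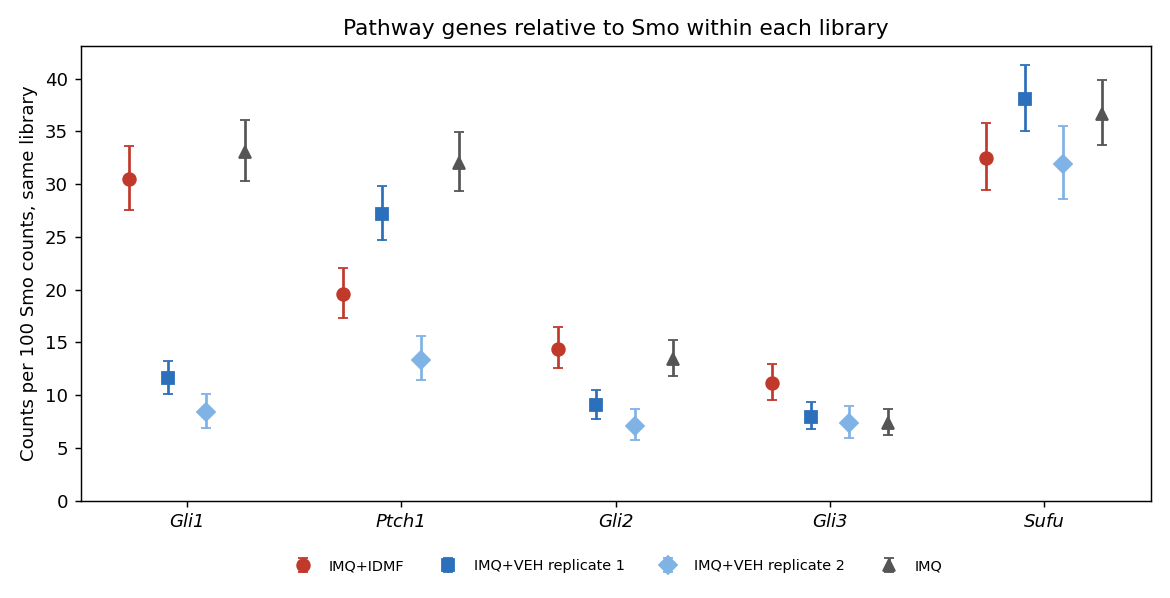
Counts of Gli1, Ptch1, Gli2, Gli3 and Sufu per 100 Smo counts in each library, with exact 95% intervals of counting error. The intervals of Gli1 in both IMQ+VEH libraries do not reach those of IMQ+IDMF or IMQ, whereas Ptch1 in IMQ+IDMF lies between the IMQ+VEH replicates.

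Genes with the profiles most like those of Shh, Gli1 and Ptch1 were sought over all libraries. Likeness was the Euclidean distance between centred log2 CPM profiles over the 4 libraries, among 12426 genes for Shh and 12425 for the others, and with so few libraries many genes lie close. Genes close to Gli1 were Mycn, a proliferation-driving transcription factor (distance 0.617), Grip1 (0.690), Fras1 (0.743) and Slco4a1 (0.774). Genes close to Shh were Atp6v1b1, a proton pump subunit (1.34), Mycn (1.67), Golga7b (2.02) and Fetub (2.12), with Gli1 at 2.21. Ptch1 was nearest to Aim2, a sensor of DNA (0.0755), Gna14, Nckap5l, Plagl1 and Ccdc18, and Gli1 was 9536th in that order. At the same distance (1.41), Ptch1 was 246th in the order from Gli1, so the rank depends on which gene is the starting point.

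The other genes of the pathway were tested with edgeR in lists chosen with earlier results known. Among 8 genes of ligands and their release, 0 were called in either comparison (median log2 difference 0.05 for IMQ+IDMF over IMQ+VEH and -0.22 for IMQ+VEH over IMQ). Of these, Scube3, which helps release the ligand, had 20 counts in IMQ+IDMF, 11 and 6 in IMQ+VEH, and 33 in IMQ, and Disp1, which exports it, had 140 counts in IMQ+IDMF, 239 and 136 in IMQ+VEH, and 179 in IMQ. The remaining members of that list, Hhat, Disp2, Scube1 and Scube2, had at most 62 counts in any library. The co-receptor Cdon had 13.1 CPM in IMQ+IDMF, 25.4 and 14.6 CPM in IMQ+VEH, and 14.8 CPM in IMQ. The co-receptors Boc (19.0 CPM in IMQ+IDMF, 23.6 and 18.2 CPM in IMQ+VEH, 21.0 CPM in IMQ) and Gas1 (77.1 CPM in IMQ+IDMF, 97.9 and 70.2 CPM in IMQ+VEH, 108 CPM in IMQ) lay between the IMQ+VEH libraries in IMQ+IDMF, and Lrp2 had 3 counts in IMQ+IDMF and 0 in the others. Cdon, Boc and Gas1 were not called in either comparison, and Lrp2 had too few counts to test. Signal transduction (20 genes, medians -0.05 and 0.08) and primary cilium genes (18 genes, medians -0.03 and -0.06) also had 0 called. Of the reported Gli targets, 11 of 14 were tested and 0 called (medians 0.33 and 0.12). Among them, Mycn had 106 counts in IMQ+IDMF, 27 and 21 in IMQ+VEH, and 125 in IMQ, with log2 differences of 2.25 (SE 0.60) for IMQ+IDMF over IMQ+VEH and -2.31 (SE 0.59) for IMQ+VEH over IMQ, at edgeR adjusted p of 1 and 0.15. Ccnd2, a cyclin and reported target, was not of that pattern, with 95.9 CPM in IMQ+IDMF, 66.4 and 55.5 CPM in IMQ+VEH and 34.2 CPM in IMQ. Of the hair placode and matrix signals, 18 of 20 were tested and 0 called (medians 0.24 and -0.35), with 10 of the 18 above both IMQ+VEH libraries in IMQ+IDMF (27.7% of all genes tested) and 3 below both (27.5%). Both IMQ+VEH libraries were below IMQ for 10 of the 18 (35% of all genes tested) and above it for 4 (33.6%). Edaradd, an adaptor of ectodysplasin signalling, had 17.0 CPM in IMQ+IDMF, 16.5 and 14.7 CPM in IMQ+VEH, and 30.3 CPM in IMQ. Hoxc13, of the same list, had 7.96 CPM in IMQ+IDMF, 3.10 and 3.07 CPM in IMQ+VEH, and 5.36 CPM in IMQ.

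**Figure D4:**
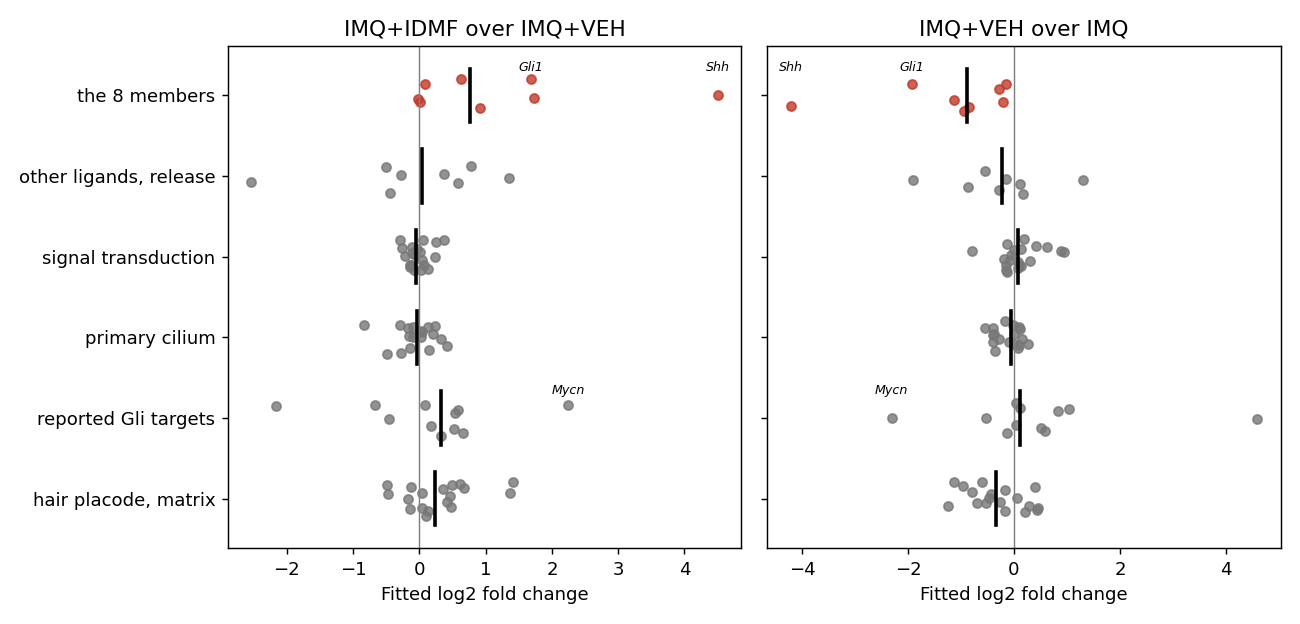
Fitted log2 fold changes (horizontal axes, of different range) of the 8 members and of 5 lists of other hedgehog and hair signal genes, 1 point per gene and a black bar for the list median; IMQ+IDMF over IMQ+VEH is on the left and IMQ+VEH over IMQ on the right, and height within a list has no meaning. Mycn (2.25 and -2.31) lies apart from most reported Gli targets, on the same sides as Shh and Gli1. The far point among the Gli targets on the right is Foxc2, which had 1 count in IMQ.

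Markers of the hair shaft and root sheath differed between the libraries beside Shh, and their part in the Shh and Gli1 differences was not tested. Of 21 hair shaft and root sheath genes, 14 were tested, and 5 fell in IMQ+VEH compared with IMQ by edgeR's test (0.325% of all genes tested did): Tchh, Krt71, Krt25, Krt35 and Krt73, structural proteins of the inner root sheath and the shaft. Krt71 had 26 counts in IMQ+IDMF, 8 and 3 in IMQ+VEH, and 452 in IMQ (adjusted p 0.000592 for IMQ+VEH over IMQ). Of these genes, 0 were called between IMQ+IDMF and IMQ+VEH, and 10 of 14 lay above both IMQ+VEH libraries in IMQ+IDMF (27.7% of all genes tested). Summed CPM of the list was 48.8 in IMQ+IDMF, 39.4 and 35.1 in IMQ+VEH, and 113 in IMQ, with 2 of its genes at 0 in IMQ+IDMF, 7 and 8 in IMQ+VEH and 0 in IMQ. Selenbp1, the most abundant gene of the list, had its lowest level in IMQ, with 506 counts in IMQ+IDMF, 831 and 453 in IMQ+VEH, and 379 in IMQ. Shh had near equal counts in IMQ+IDMF and IMQ, and the 5 hair genes called did not. These 5 were called for a fall from the single IMQ library to IMQ+VEH, which favours genes high in IMQ. Nothing is read from that contrast. Krt85, tested but not called, had 26 counts in IMQ+IDMF, 0 in both IMQ+VEH libraries, and 36 in IMQ. Dsg4 had 16 counts in IMQ+IDMF, 1 and 0 in IMQ+VEH, and 7 in IMQ. Over the 14 genes tested, the median log2 CPM difference of IMQ+IDMF from IMQ was -1.37. Krt71 counts per 100 Shh counts were 38.8 in IMQ+IDMF (exact 95% interval 23.7 to 61.9), 400 (79.8 to 3867) and 75 (11.0 to 443) in IMQ+VEH replicates 1 and 2, and 729 in IMQ (558 to 967). The intervals of IMQ+IDMF and IMQ did not overlap, and the few counts in IMQ+VEH left that ratio poorly determined there. Krt71 was among the genes called for being lower in IMQ+VEH than in IMQ, so this gap is a description. Krt71 and Krt35 passed the filter on low counts only through the IMQ+IDMF and IMQ libraries. Lhx2, a transcription factor of the hair bulge, had 28.7 CPM in IMQ+IDMF, 10.3 and 11.6 CPM in IMQ+VEH, and 21.5 CPM in IMQ. Cd34, of the same list, went the other way, with 82.1 CPM in IMQ+IDMF, 197 and 118 CPM in IMQ+VEH, and 82.4 CPM in IMQ. Of the 8 bulge markers, both IMQ+VEH libraries were below IMQ for 5 (35% of all genes tested) and above it for 3 (33.6%). IMQ+IDMF was above both IMQ+VEH libraries for 5 (27.7%) and below both for 2 (27.5%).

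**Figure D5:**
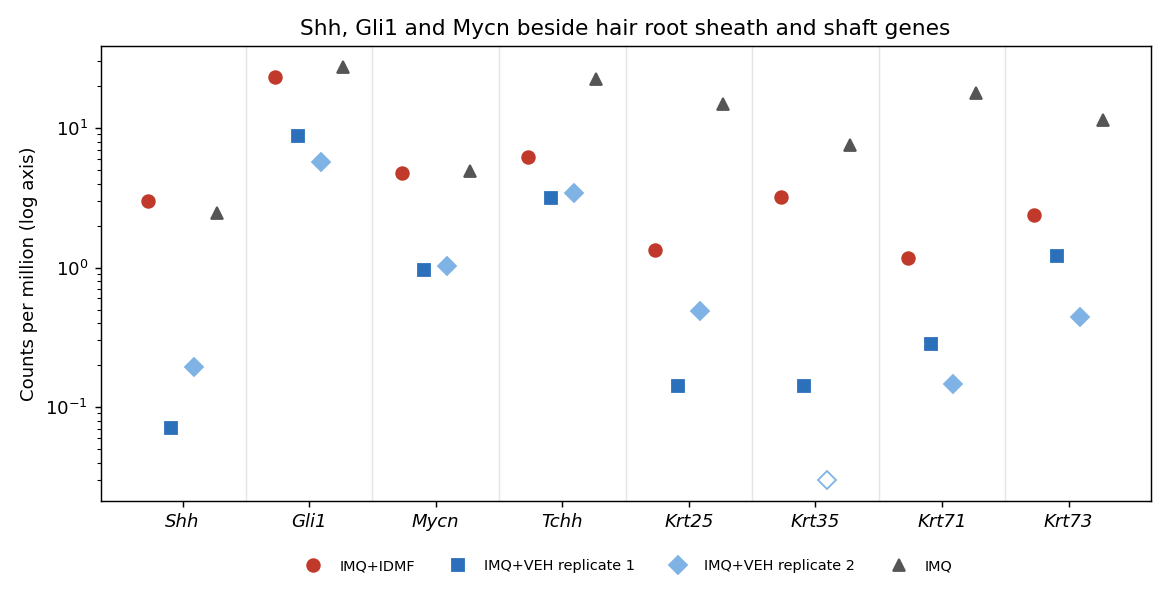
CPM of Shh, Gli1, Mycn and 5 hair shaft and root sheath genes in each library on a log axis, where an open diamond marks Krt35 in IMQ+VEH replicate 2, a count of 0 drawn at the bottom of the axis. Shh is at 2.996 CPM in IMQ+IDMF and 2.44 CPM in IMQ, while each of the 5 hair genes lies below its IMQ value in IMQ+IDMF. The 5 were called for being lower in IMQ+VEH than in IMQ, which favours a high IMQ value, so nothing is read from this.

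Markers of other skin cells differed between the libraries as well, and their part in the differences was not tested. Fibroblast markers, of the dermal cells in which Gli genes are also expressed, had higher summed levels in IMQ+VEH. The 10 markers summed to 2322 CPM in IMQ+IDMF, 6658 and 3491 CPM in IMQ+VEH, and 1812 CPM in IMQ, with none at 0. IMQ+IDMF was below both IMQ+VEH libraries for 8 of the 10 (27.5% of all genes tested), and both IMQ+VEH libraries were above IMQ for 9 of the 10 (33.6%), with 0 called. Dermal papilla markers (11 genes) summed to 49.2 CPM in IMQ+IDMF, 71.9 and 31.9 CPM in IMQ+VEH, and 37.9 CPM in IMQ. Basal keratinocyte markers (6 genes) summed to 11397 CPM in IMQ+IDMF, 9086 and 9702 CPM in IMQ+VEH, and 15448 CPM in IMQ, again with none at 0. Krt14 made up much of the IMQ sum, with 9905 CPM there against 5334 CPM in IMQ+IDMF. IMQ+IDMF was above both IMQ+VEH libraries for 6 of the 6 (27.7% of all genes tested). Both IMQ+VEH libraries were below IMQ for 4 of the 6 (35%) and above it for 1 (33.6%). Melanocyte markers (9 genes) summed to 46.0 CPM in IMQ+IDMF, 33.2 and 36.9 CPM in IMQ+VEH, and 66.4 CPM in IMQ. Among them 1 was at 0 in IMQ+IDMF and 1 in IMQ+VEH replicate 1, and 0 were called. The order of the sum was not that of every marker. Of 8 tested, both IMQ+VEH libraries were below IMQ for 5 (35% of all genes tested) and above it for 2 (33.6%). IMQ+IDMF was above both IMQ+VEH libraries for 4 of the 8 (27.7%) and below both for 1 (27.5%). Adipocyte markers (6 genes) summed to 1390 CPM in IMQ+IDMF, 1786 and 1292 CPM in IMQ+VEH, and 475 CPM in IMQ, and 4 of them rose in IMQ+VEH compared with IMQ by edgeR's test (0.338% of all genes tested did). Sebaceous gland markers (9 genes) summed to 5209 CPM in IMQ+IDMF, 4406 and 4543 CPM in IMQ+VEH, and 1934 CPM in IMQ. Of these, 9 of 9 were above IMQ in both IMQ+VEH libraries (33.6% of all genes tested) and 1 was called higher (0.338%). Macrophage and monocyte markers (6 genes) summed to 287 CPM in IMQ+IDMF, 747 and 423 CPM in IMQ+VEH, and 518 CPM in IMQ. In IMQ+IDMF 6 of 6 were below both IMQ+VEH libraries (27.5% of all genes tested), and 0 were called. The remaining lists, of hair bulge, suprabasal keratinocyte, smooth and skeletal muscle, endothelial and T cell markers, had 0 genes called in either comparison. Even so, both IMQ+VEH libraries were above IMQ for 6 of 6 smooth muscle and 6 of 6 skeletal muscle markers (33.6% of all genes tested). For endothelial markers this held for 4 of 6, with 0 below IMQ in both. Skeletal muscle markers summed to 20991 CPM in IMQ+IDMF, 22285 and 16075 CPM in IMQ+VEH, and 11588 CPM in IMQ.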

How the data were processed

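RNA from mouse back skin was sequenced in single-end runs of 50 cycles. The authors deposited, per library, a table of 20611 genes with a raw count and an FPKM value, as named in the file headers; alignment to GRCm38 (mm10) with TopHat2, and Cufflinks and HTSeq, are named in the submitters' processing notes, without versions. For the counting, the sources used here give neither annotation nor strand setting. Groups were taken from the labels. Counts were tested in R 4.3.3 with edgeR 4.0.16 (quasi-likelihood test, TMM, filterByExpr with a minimum count of 10 and total of 15, all 4 libraries in 1 fit with 1 residual degree of freedom, common biological coefficient of variation 24%), after a test on simulated data. Adjusted p (Benjamini-Hochberg) covers all 15068 genes tested, with a threshold of 0.05. Alternatives used DESeq2 1.42.0 and other filters, scalings and groupings. Log2 CPM used a prior count of 2. Intervals are exact Poisson or binomial 95% intervals. The only spread between replicates comes from the IMQ+VEH pair.

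The members and lists were chosen with earlier results of these data known. Named genes were all members, all ligand and receptor list genes, those called in other lists with the 4 largest differences of IMQ from the other libraries (pathway lists) or the 4 highest (cell type lists), and the 5 nearest to Shh, Gli1 and Ptch1; the text gives those that bear on a result, and some genes are not reported here. 2 list genes had no row. Sequences are from GENCODE M21 and RefSeq (GRCm38.p6). 1 gene is counted under an older symbol, Adrbk1 for Grk2.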

Additional observations from a re-analysis of the deposited data

How the results depend on the processing

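No paired analysis was possible because IMQ+IDMF and IMQ have 1 library each. The main fit tested 15068 genes, and the fit without a filter on low counts tested 17527. Calls of members are listed only to show how they move with the setting. For IMQ+IDMF against IMQ+VEH, 0 genes were called, and 16 without a filter on low counts (11 higher, 5 lower), Shh and Gli1 among the members and 1 other hedgehog or hair signal gene. For IMQ+VEH against IMQ, 100 genes were called, 424 without a filter (310 higher, 114 lower), 195 with DESeq2 and 55 with IMQ+VEH and IMQ+IDMF as 1 group. Of the other hedgehog and hair signal genes 0 were called, against 1 with DESeq2 size factors in edgeR, 2 without a filter (Mycn among them) and 1 with DESeq2. Gli1 was not called with total counts as the scaling or with IMQ+VEH and IMQ+IDMF as 1 group, and Shh was called with DESeq2 size factors and without a filter. In the main fit Shh passed the filter on low counts only through the IMQ+IDMF and IMQ libraries, where it was high. The members were chosen with these contrasts known, so nothing is read from their calls in any setting. The cause of the shifts between settings was not tested. Of 172 alternative values of the members' 16 fold changes, 4 had the opposite sign: Ptch1 in IMQ+IDMF over IMQ+VEH (-0.45 without replicate 2 and -0.33 with IMQ and IMQ+VEH as 1 group), Sufu (0.19 without replicate 1) and Gli3 in IMQ+VEH over IMQ (0.08 with IMQ+VEH and IMQ+IDMF as 1 group). Leaving out an IMQ+VEH replicate moved the log2 difference of IMQ+IDMF over IMQ+VEH between 3.90 and 5.30 for Shh, 1.42 and 2.02 for Gli1, and -0.45 and 0.71 for Ptch1, and that of IMQ+VEH over IMQ between -5.01 and -3.61, -2.27 and -1.66, and -1.55 and -0.39. These values have no test. Without replicate 1, 8 members lay above IMQ+VEH in IMQ+IDMF, and without replicate 2, 6, alternatives chosen after seeing the data. The log2(FPKM + 0.1) scale gave 2.83 and -2.51 for Shh. With 1 library in each of IMQ+IDMF and IMQ, no difference has a replicate check on that side, and the depth limits Shh and Hhip in IMQ+VEH.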
